A study of Mus musculus with 23 samples.

Results

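The Ifit and Oas families are antiviral effector genes whose transcription is switched on by interferon. The genes described here are 4 Ifit genes (Ifit1, Ifit2, Ifit3 and Ifit3b) and 6 genes of the Oas family (Oas1a, Oas1g, Oas2, Oas3, Oasl1 and Oasl2). They were taken by symbol and are 10 of the 32793 rows in the deposited gene tables. The tables hold 18 rows of these families in all. The members were chosen because their levels on days 3 and 6 were known to differ between genotypes, so their differences on those days are given as a description with no test.

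Interferons bind receptors at the cell surface, and the receptor kinases activate a complex of transcription factors, ISGF3, which contains STAT2 and IRF9. ISGF3 binds a DNA element in the promoters of interferon-stimulated genes, built on the letters GAAA repeated at a short spacing. IFIT proteins bind foreign RNA, in the case of IFIT1 at its 5′ end, and hinder its translation. OAS proteins are synthetases that, on contact with double-stranded RNA, make the second messenger 2-5A, which leads to the breakdown of RNA. The OAS-like proteins OASL1 and OASL2 share the fold, and mouse OASL1 is known as an inhibitor of Irf7 translation rather than as a synthetase. Below, the synthetases is a group name for Oas1a, Oas1g, Oas2 and Oas3 and says nothing of the activity of OASL2.

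The cells were C2C12, an established mouse myoblast line that fuses into myotubes once serum is lowered. The groups were control cells (WT in the sample titles) and Runx1KO cells, each while growing in 20% fetal bovine serum (day 0) and on days 1, 3 and 6 of differentiation in 2% horse serum. The titles name the last time point as day 6 and the series text as day 5, and the titles were followed. WT in growth medium had 2 libraries analysed here and each of the other 7 groups had 3. How the knockout was made, and whether the line is 1 clone, is not given in the sources used here, nor whether the replicates were separate cultures, so p-values measure only the spread between these libraries.

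Runx1 mRNA was not lower in the KO-labelled libraries. It stood at 118 to 122 CPM there against 83.9 and 84.0 CPM in WT on day 0, and at 297 to 319.7 against 146 to 165 CPM on day 6, where CPM is the estimated count relative to the TMM-scaled library size. These data do not measure RUNX1 protein, so its loss could not be checked, and these are called the KO-labelled libraries. The estimated counts of a library summed to between 22197606 and 23684077. Replicate 2 of the day 1 KO-labelled libraries stood apart: it differed from its replicates by a chi-square of 61.7 and 62.1 per degree of freedom, against 3.13 to 28.0 in all other pairs of replicates. Myoblast markers (5 of 5, among them Myod1 and Des) were present in every group, at 1597 to 3503 CPM summed per library.

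The 10 genes lie in 3 clusters (GRCm38, with spans from RefSeq and strands from GENCODE M21). The Ifit genes are on the plus strand of chromosome 19, with Ifit2 at chr19:34550550-34576534, Ifit3 at chr19:34583119-34588982, Ifit3b at chr19:34607530-34613403 and Ifit1 at chr19:34640889-34650009. On chromosome 5, Oasl2 (chr5:114896926-114912245) and Oasl1 (chr5:114923143-114937911) are neighbours on the plus strand. Farther along, Oas2 (chr5:120730333-120749886), Oas3 (chr5:120753098-120777684), Oas1g (chr5:120876142-120887613) and Oas1a (chr5:120896256-120907544) are on the minus strand. All 10 are annotated as protein coding.

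Promoter windows of 300 bases (250 before to 50 after a start site) from RefSeq (GRCm38.p6) were found for 9 of the 10 genes, with no entry for Oas2. The GAAA-based element was searched as GAAANNGAAA on both strands. It was present in 6 of the 9 genes, against 3.99% of the 27025 genes with a window and 3.44% of all 32851 windows. Ifit2, Oasl1 and Oasl2 had no match in these windows. The stretches that hold the matches are printed here, 5′ to 3′ on the strand of the gene with the matched letters in capitals, because they show which members carry the element and how alike the paralogs are. A capital run that reads in the other direction (TTTC) is a match on the opposite strand.
Ifit1 (chr19:34640765-34640833, plus strand): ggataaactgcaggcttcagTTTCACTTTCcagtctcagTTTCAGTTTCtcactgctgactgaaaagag
Ifit3 (chr19:34583353-34583436, plus strand): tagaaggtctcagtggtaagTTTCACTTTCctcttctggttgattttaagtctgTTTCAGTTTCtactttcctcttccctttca
Ifit3b (chr19:34607749-34607832, plus strand): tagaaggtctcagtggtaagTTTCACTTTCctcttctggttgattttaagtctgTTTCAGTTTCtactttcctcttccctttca
Oas1a (chr5:120907526-120907565, minus strand): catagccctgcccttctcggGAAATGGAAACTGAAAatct
Oas1g (chr5:120887614-120887651, minus strand): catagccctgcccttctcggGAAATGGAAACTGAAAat
Oas3 (chr5:120777705-120777754, minus strand): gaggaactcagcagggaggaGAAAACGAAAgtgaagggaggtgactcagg

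The printed stretches of Ifit3 and Ifit3b are the same, and the windows of these genes share a run of 169 bases. Those of Oas1a and Oas1g share a run of 73 bases, and in both the matches overlap each other and lie within 20 bases of the start site. The match of Oas3 begins 75 bases before it. In Ifit1, Ifit3 and Ifit3b the matches lie farther away, from 188 to 76 bases before the start site. The start sites used for the windows of Ifit3 and Ifit3b lie inside the RefSeq spans given above, so their printed stretches do too. Those of Oas1a and Oas3 also lie inside their spans, and the printed stretch of Oas1a lies partly inside. A match describes letters and is not a measured binding site.

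The close paralogs limit what a count for a single gene can mean. Of all 50-base windows in the transcripts of Ifit3, 51.2% also occur in Ifit3b, and 57.6% of those of Oas1a occur in Oas1g. In the other direction the shares were 44.5% for Ifit3b and 45.2% for Oas1g. Reads from these stretches can be split between the genes of a pair, so the single values of Ifit3, Ifit3b, Oas1a and Oas1g are uncertain and their sums are safer. For Ifit1 the share with any other gene was 7.13%, mostly with Ifit1bl2. For Oas3 it was 0.31%, for Oasl2 0.138%, and for Ifit2, Oas2 and Oasl1 it was 0. Ifit1 and Ifit3b also lie within the RefSeq span of Ifit1bl1, though they overlap no gene in GENCODE. Oas2 and Oasl1 overlap GENCODE model genes. In each case the other gene is on the opposite strand. Whether the counting used strand is not given in the sources used here.

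In growth medium the families were close to silent, with Ifit2 as the exception. Ifit2 had 180 and 149 estimated counts in the 2 WT libraries and 228, 193 and 185 in the 3 labelled KO. Ifit3, Ifit3b, Oas1a, Oas1g, Oas2 and Oas3 reached at most 4 counts in the day 0 libraries of either genotype. At this depth 3 counts were taken as the floor, and a difference between such values could not be detected. On days 0 and 1 the comparison of genotypes therefore rests on Ifit1, Ifit2, Oasl1 and Oasl2, the members with at least 10 counts in 1 of the libraries concerned.

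**Figure D1:**
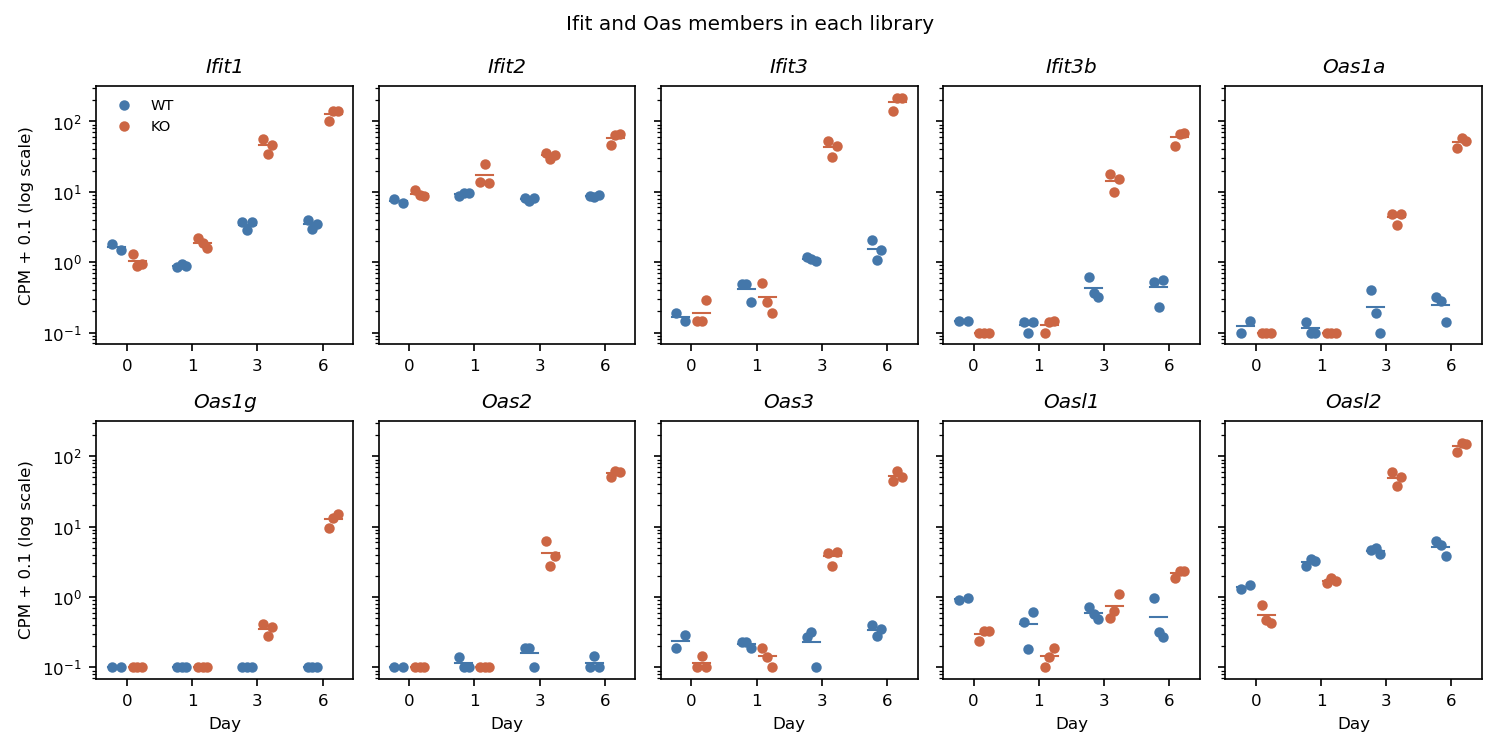
Level of each member in each library, as CPM + 0.1 on a log axis shared by all panels, by day, with WT in blue and the KO-labelled libraries in orange. Points are libraries, short lines are group means, and a point at 0.1 is a count of 0. From day 3 the orange points stand above the blue ones in every panel but that of Oasl1, where they do so on day 6.

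Both Oas-like genes were lower in the KO-labelled libraries in growth medium. Oasl1 had 18 and 19 counts in WT and 3, 5 and 5 in the KO-labelled libraries. Oasl2 had 27 and 30 counts in WT and 15, 8 and 7 in the KO-labelled libraries. For both genes the groups did not overlap, as held for 26.6% of all tested genes in that direction. In the quasi-likelihood test of edgeR, with p adjusted by Benjamini and Hochberg over 14187 genes, the log2 fold change was -2.03 for Oasl1 (SE 0.63, adjusted p = 0.0269) and -1.47 for Oasl2 (SE 0.41, adjusted p = 0.0150). The members called on day 0 were these 2 of 10, both lower, where 10.1% of all tested genes were called lower and 7.36% higher. DESeq2 also called 2, both lower.

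Each of those calls rests on few counts. The Oasl1 call was lost when any 1 of the 5 day 0 libraries was left out (log2 fold change -2.15 to -1.79, adjusted p = 0.0571 to 0.125). The Oasl2 call was lost in 4 of these 5 fits (-1.56 to -1.27, adjusted p = 0.0547 to 0.108) and kept only without replicate 1 of the KO-labelled libraries (-1.84). It was also lost with limma on log2(TPM + 1), where the value was -0.43. Ifit1 had 39 and 30 counts in WT and 27, 17 and 18 in the KO-labelled libraries. Its values did not overlap, but its log2 fold change of -0.70 (SE 0.35) did not pass the test (adjusted p = 0.190). Ifit2 had a log2 fold change of 0.33 (SE 0.21, adjusted p = 0.348), although every KO-labelled library lay above both WT libraries.

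On day 1 the 4 members that could be compared went in both directions. Ifit1 had 18, 20 and 18 counts in WT and 47, 42 and 33 in the KO-labelled libraries. Ifit2 had 206, 228 and 223 counts in WT and 299, 589 and 296 in the KO-labelled libraries. In both Ifit genes every KO-labelled library lay above every WT library, as held for 3469 of the 14187 tested genes, with 3219 wholly below. Oasl2 went the other way, with 63, 79 and 73 counts in WT and 33, 42 and 35 in the KO-labelled libraries. Oasl1 had 8, 2 and 12 counts in WT and 0, 1 and 2 in the KO-labelled libraries, so its groups overlapped at the lowest values.

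In edgeR's quasi-likelihood test the day 1 log2 fold change was 1.16 for Ifit1 (SE 0.31, adjusted p = 0.00434) and 0.88 for Ifit2 (SE 0.18, adjusted p = 0.000362). It was -0.92 for Oasl2 (SE 0.24, adjusted p = 0.00390). Oasl1 was called lower (edgeR adjusted p = 0.0163). It was at or under the floor in every KO-labelled library and in WT replicate 2, and its WT mean was 2.37-fold the floor of 3 counts. Oasl1 passed the filter on low counts only through other groups and was not tested when the fit held day 1 alone. Its call was lost without replicate 1 of the KO-labelled libraries, without WT replicate 3 and with limma on log2(TPM + 1). Thus 2 of 10 members were called higher and 2 lower, Oasl1 among them with that limit. These shares are near the 22.9% and 19.2% of all tested genes called on that day. The size of the Ifit2 difference depended on replicate 2 of the KO-labelled libraries, the library that stood apart. Without it the log2 fold change of Ifit2 was 0.50 (adjusted p = 0.00456) and those of Ifit1 and Oasl2 were 1.15 and -1.02.

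**Figure D2:**
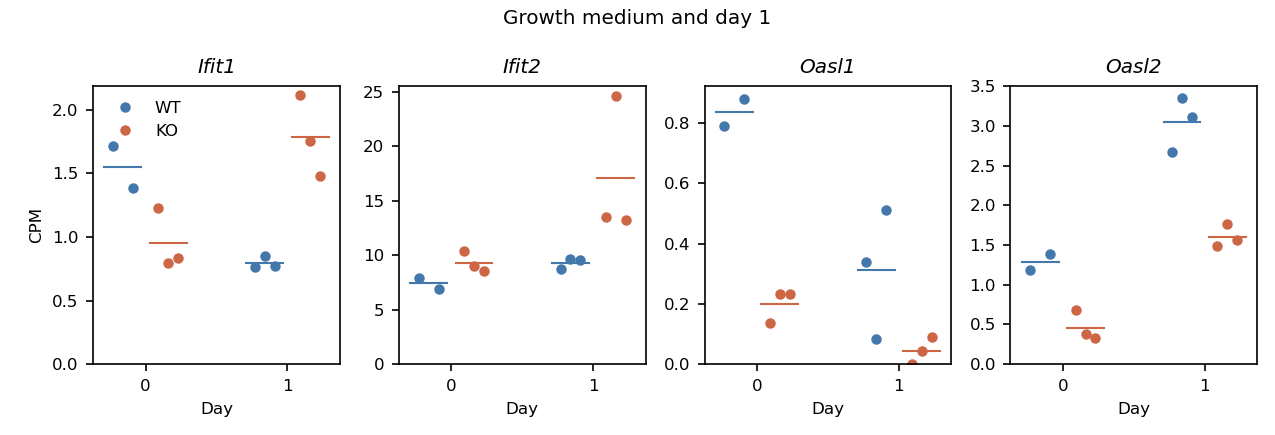
CPM of the 4 members that could be compared in growth medium (day 0) and on day 1, with an axis from 0 in each panel, WT in blue and the KO-labelled libraries in orange. Points are libraries and short lines are group means. Ifit1 is lower on day 0 and higher on day 1 in the KO-labelled libraries, while Oasl2 rises in both genotypes and is lower in those labelled KO on both days.

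Over the first day in low serum Ifit1 went in opposite directions in the 2 genotypes. In WT, Ifit1 fell by 0.97 on the log2 scale from day 0 to day 1 (SE 0.36, edgeR adjusted p = 0.0248), and in the KO-labelled libraries it rose by 0.90 (SE 0.31, adjusted p = 0.0165). The difference between these changes was 1.87 (SE 0.47, edgeR interaction adjusted p = 0.0254). With limma on log2(TPM + 1) this difference was 0.84 and was still called. Ifit1 was the 1 member of 10 with a called interaction, and 3.95% of all tested genes had one. The interaction call was lost in 6 of 11 fits that each left out a library, with adjusted p = 0.0528 to 0.145 and values from 1.68 to 2.01. Those were the fits without WT replicates 1 and 2 of either day and without replicate 2 of either KO-labelled day. The WT decrease was lost without WT replicate 1 of day 0 or without replicate 1 or 3 of day 1 (-0.94 to -0.76, adjusted p = 0.0532 to 0.189). The increase in the KO-labelled libraries was lost without replicate 2 or 3 of day 0 or replicate 1 of day 1 (0.76 to 0.81, adjusted p = 0.0609 to 0.0715).

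Oasl2 rose in both genotypes, by 1.24 in WT (SE 0.29, edgeR adjusted p = 0.000921) and by 1.79 in the KO-labelled libraries (SE 0.36, adjusted p = 0.000212). The difference between the changes was 0.55 (SE 0.48) and did not pass the test (edgeR interaction adjusted p = 0.591). Ifit2 rose in the KO-labelled libraries by 0.88 (SE 0.18, edgeR adjusted p = 0.000242), or by 0.53 without replicate 2 of day 1. In WT its change was 0.33 (SE 0.21, adjusted p = 0.201), and the interaction was 0.55 (SE 0.28, adjusted p = 0.300) or 0.15 without that library. Oasl1 fell by 1.40 in WT (SE 0.58, edgeR adjusted p = 0.0449), a call lost in 4 of 5 fits that left out a library and as low as -0.91 without WT replicate 2 of day 1. The WT decrease of Oasl1 was also lost with library size as the only scaling (adjusted p = 0.0560), and that of Ifit1 with limma on log2(TPM + 1) (adjusted p = 0.0858). In WT 1 member was called higher and 2 lower, against 27.1% and 27.6% of all tested genes. In the KO-labelled libraries 3 were called, all of them higher, where 27.2% of all tested genes were called higher and 25.2% lower. These comparisons share libraries with each other and with the comparisons of genotypes.

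From day 3 the KO-labelled libraries held far more Ifit mRNA. Ifit1 stood at 56.9, 34.5 and 46.7 CPM in the KO-labelled libraries and at 3.57, 2.77 and 3.60 CPM in WT. Ifit2 stood at 36.1, 29.2 and 33.8 CPM against 8.14, 7.41 and 8.20 CPM. Ifit3 stood at 52.7, 31.5 and 44.6 CPM against 1.09, 0.997 and 0.954 CPM. None of these groups overlapped, and the lowest KO-labelled library was replicate 2 in each. Ifit3b stood at 18.0, 9.78 and 15.2 CPM against 0.522, 0.260 and 0.217 CPM. On the log2 scale the differences were 3.79 for Ifit1 (SE 0.18), 2.06 for Ifit2 (SE 0.18), 5.40 for Ifit3 (SE 0.25) and 5.41 for Ifit3b (SE 0.33). In bulk RNA, fewer expressing cells and less RNA per cell cannot be told apart.

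The synthetases had only begun to appear on day 3. Oas1a stood at 4.75, 3.26 and 4.80 CPM in the KO-labelled libraries and had 7, 2 and 0 counts in WT. Oas2 stood at 6.16, 2.68 and 3.68 CPM and had 2, 2 and 0 counts in WT. Oas3 stood at 4.16, 2.64 and 4.26 CPM and had 4, 5 and 0 counts in WT. All 3 were above every WT library, with log2 fold changes of 4.98 for Oas1a (SE 0.42) and 4.77 for Oas3 (SE 0.38), and Oas2 was at least 32.0-fold higher. The Oas1a value was 6.45 without WT replicate 1 and 4.41 without WT replicate 3, since WT counts were so low. The Oas3 value was 4.20 without WT replicate 3. With limma on log2(TPM + 1), a scale that understates changes of low genes, the values were 2.12 for Oas1a and 1.16 for Oas3, and among the Ifit genes they ran from 1.66 for Ifit2 to 4.22 for Ifit3. Oas1g had 7, 4 and 6 counts in the KO-labelled libraries and 0 in WT, too few for a fold.

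The Oas-like genes parted from each other. Oasl2 stood at 58.8, 37.8 and 50.03 CPM in the day 3 KO-labelled libraries and at 4.48, 4.85 and 4.03 CPM in WT, a log2 fold change of 3.45 (SE 0.17). Oasl1 had 9, 12 and 22 counts in the KO-labelled libraries and 14, 11 and 9 in WT. Its groups overlapped, and its log2 fold change of 0.38 (SE 0.51) became -0.059 without replicate 3 of the KO-labelled libraries. Oasl1 was the only member whose groups overlapped on day 3. The other 9 of 10 were higher in every KO-labelled library, a count that the choice of members fixed. Over all tested genes that share was 33.2%, and 24% were called higher and 19.2% lower.

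On day 6 all 10 members were higher in every KO-labelled library than in any WT library, against 26.5% of all tested genes, of which 22% were called higher and 20.8% lower. Ifit1 stood at 103, 142 and 143 CPM in the KO-labelled libraries and at 3.91, 2.84 and 3.44 CPM in WT. Ifit2 stood at 46.3, 63.6 and 65.3 CPM against 8.72, 8.20 and 8.97 CPM. Ifit3 stood at 141, 215 and 217 CPM against 1.93, 0.976 and 1.38 CPM. Replicate 1 was the lowest of the KO-labelled libraries in all 3 Ifit genes, as it was for all 10 members. Ifit3b stood at 44.2, 66.5 and 69.5 CPM against 0.430, 0.133 and 0.461 CPM. The log2 fold changes were 5.25 for Ifit1 (SE 0.18), 2.76 for Ifit2 (SE 0.18), 7.05 for Ifit3 (SE 0.24) and 7.42 for Ifit3b (SE 0.31).

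Among the synthetases on day 6, Oas1a stood at 41.7, 57.4 and 53.1 CPM in the KO-labelled libraries and had 5, 4 and 1 counts in WT. Oas2 stood at 51.5, 61.3 and 60.6 CPM and had 0, 1 and 0 counts in WT. Oas3 stood at 43.8, 60.9 and 50.2 CPM and had 7, 4 and 6 counts in WT. In WT these genes stayed near the floor of 3 counts, so the folds rest on few counts in the denominator. Oas1g stood at 9.35, 13.1 and 15.2 CPM, with a count of 0 in all 11 WT libraries of the series. The log2 fold change was 8.41 for Oas1a (SE 0.34) and 7.69 for Oas3 (SE 0.28), Oas2 was at least 447-fold higher and Oas1g at least 97.1-fold higher. With the counts of Oas1a and Oas1g merged the log2 fold change was 8.73, and with Ifit3 and Ifit3b merged it was 7.14.

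Oasl2 stood at 116, 153 and 148 CPM on day 6 in the KO-labelled libraries and at 6.19, 5.37 and 3.77 CPM in WT, a log2 fold change of 4.77 (SE 0.17). Oasl1 stayed low, with 40, 53 and 52 counts against 20, 5 and 4. Its log2 fold change was 2.32 (SE 0.47), or 3.37 without WT replicate 1, the WT library with 20 counts. The median log2 fold change over the 10 members was 4.87 on day 3 and 7.24 on day 6, against 0.04 and 0.00 over all tested genes. With members at the floor set to their bound the medians were 4.28 and 6.83. With limma on log2(TPM + 1) the day 6 values were lower, at 5.39 for Oas1a, 4.10 for Oas3, 5.28 for Ifit3b, 6.13 for Ifit3, 4.63 for Ifit1 and 1.02 for Oasl1.

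**Figure D3:**
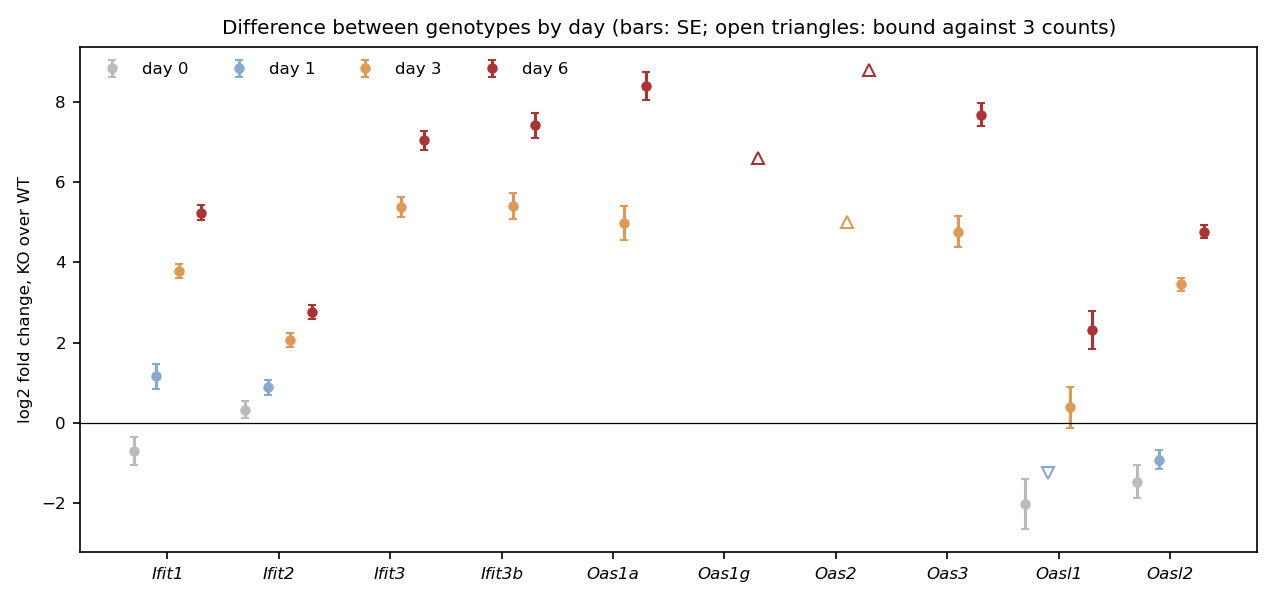
Log2 fold change of each member between the KO-labelled libraries and WT on days 0, 1, 3 and 6, with bars for the SE of the fit. Open triangles are bounds computed against 3 counts per library where a group was at or under that floor, and members with under 10 counts in every library compared are left out. Ifit1, Oasl1 and Oasl2 start below 0 on day 0, and all 10 members are above 0 on day 6.

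Between day 3 and day 6 in the KO-labelled libraries the synthetases had the largest increases of the members. The log2 change was 3.57 for Oas1a (SE 0.22), 3.79 for Oas2 (SE 0.22), 3.81 for Oas3 (SE 0.20) and 5.59 for Oas1g (SE 0.34, from 4 to 7 counts on day 3). It was 2.15 for Ifit3 (SE 0.17), 2.07 for Ifit3b (SE 0.20), 1.49 for Ifit1 (SE 0.14) and 0.82 for Ifit2 (SE 0.16). The Oas-like genes had changes of the size of the Ifit genes, 1.51 for Oasl2 (SE 0.14) and 1.70 for Oasl1 (SE 0.45). All 10 members were higher in every day 6 KO-labelled library than in any of day 3, against 26.2% of all tested genes. In WT this held for 1 member, Ifit2 (log2 change 0.13, SE 0.19), against 14.4% of all tested genes. These changes were computed after the day 3 and day 6 values had been seen and are a description.

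**Figure D4:**
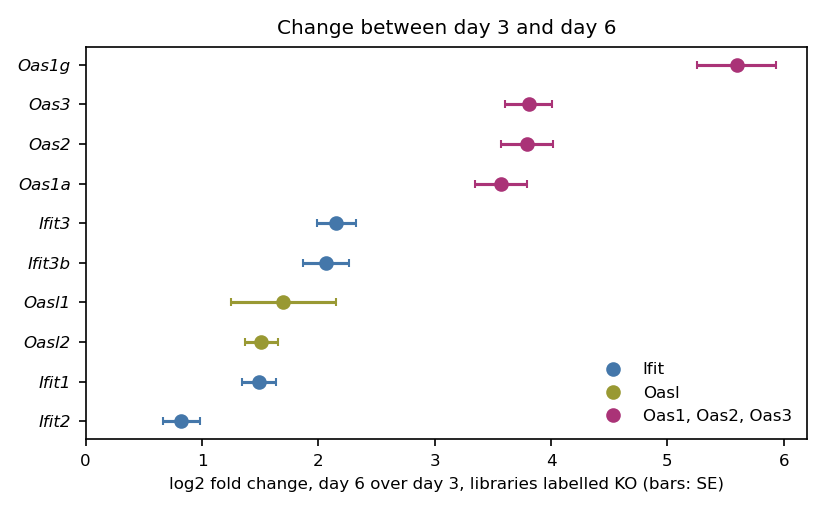
Log2 change of each member from day 3 to day 6 in the KO-labelled libraries, ordered by size, with bars for the SE. Colours give the Ifit genes, the Oas-like genes and the synthetases (Oas1, Oas2 and Oas3 genes). The 4 synthetases lie between 3.57 and 5.59, above the other 6 members, which lie between 0.82 and 2.15.

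In WT some members were also higher late in differentiation, by much less. From day 0 to day 6 in WT, the log2 change was 1.13 for Ifit1 (SE 0.28) and 1.98 for Oasl2 (SE 0.27), and Ifit3 was at least 10.6-fold higher. Ifit2 changed by 0.22 (SE 0.21). In the KO-labelled libraries the change over the same days was 7.07 for Ifit1 (SE 0.22) and 8.22 for Oasl2 (SE 0.23). It was 10.93 for Ifit3 (SE 0.34, from 1 to 4 counts on day 0) and 2.65 for Ifit2 (SE 0.18). Ifit2, which had the highest level of the members in growth medium, thus had the smallest fitted change in the KO-labelled libraries. Oasl1 had a value of 3.36 in the KO-labelled libraries (SE 0.54) and had a WT value of -0.99 (SE 0.56).

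The family sums, which do not depend on how reads are split within a pair, gave the same order of days. Summed over the 4 Ifit genes, the level was 10.4 ± 1.10 CPM (SD, n = 3) in the KO-labelled libraries and 9.07 ± 0.979 CPM (SD, n = 2) in WT on day 0, a ratio of 1.14 with overlapping groups. On day 1 it was 19.2 ± 6.49 against 10.4 ± 0.483 CPM (SD, n = 3 each), a ratio of 1.83. On day 3 it was 136 ± 29.6 against 12.6 ± 1.00 CPM, and on day 6 it was 439 ± 90.4 against 13.8 ± 1.48 CPM, ratios of 10.8 and 31.8. From day 1 the sums of the groups did not overlap. Without replicate 2 of the KO-labelled libraries, the log2 ratio of day 1 was 0.59 in place of 0.88.

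The sum over the 6 Oas genes began below WT and ended above it. It was 0.675 ± 0.132 CPM (SD, n = 3) in the KO-labelled libraries against 2.28 ± 0.306 CPM (SD, n = 2) in WT on day 0, and 1.69 ± 0.135 against 3.50 ± 0.249 CPM (SD, n = 3 each) on day 1. On day 3 it was 61.9 ± 13.9 against 5.27 ± 0.731 CPM and on day 6 it was 314 ± 44.0 against 5.93 ± 1.67 CPM. The ratios of the KO-labelled libraries to WT were 0.296, 0.483, 11.8 and 53.0 on days 0, 1, 3 and 6, with no overlap on any day. Early on this sum is almost all Oas-like mRNA. The pair Oasl1 and Oasl2 gave ratios of 0.311, 0.490, 10.01 and 25.6. The 4 synthetases summed to 0.403 ± 0.111 CPM in WT and 173 ± 23.8 CPM in the KO-labelled libraries on day 6 (SD, n = 3 each), a ratio of 429.

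**Figure D5:**
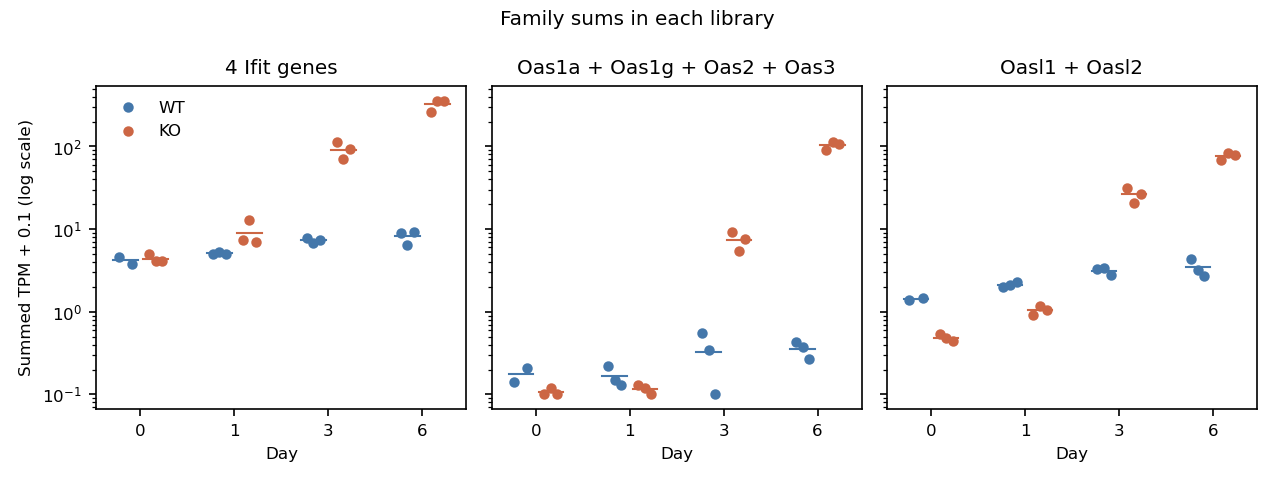
Summed TPM + 0.1 in each library for the 4 Ifit genes, the 4 synthetases and the pair of Oas-like genes, on a shared log axis by day, with WT in blue and the KO-labelled libraries in orange. Points are libraries and short lines are group means. The Oas-like pair is below WT on days 0 and 1 and above it on days 3 and 6.

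Levels of different genes can be set beside each other only per length, as TPM. In the day 6 KO-labelled libraries, Ifit3 was highest at 167 ± 31.3 TPM (SD, n = 3), followed by Ifit1 at 83.2 ± 11.4 TPM and Oasl2 at 75.0 ± 8.05 TPM. Ifit3b at 51.5 ± 9.92 TPM and Oas1a at 47.2 ± 5.88 TPM came next, then Oas2 at 26.9 ± 2.41, Ifit2 at 24.4 ± 3.36 and Oas3 at 18.0 ± 2.53 TPM. Oas1g followed at 10.9 ± 2.13 TPM and Oasl1 was lowest at 1.72 ± 0.180 TPM. The values of Ifit1 and Oasl2 overlapped, as did those of Ifit3b and Oas1a, of Oas2 and Ifit2, and of Ifit2 and Oas3. The other neighbours in this order did not overlap.

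The make-up of each family changed with the level. In TPM, Ifit2 made up 84.9% ± 1.92 (SD, n = 3) of the Ifit sum on day 0 in the KO-labelled libraries, 15.1% ± 2.04 on day 3 and 7.53% ± 0.292 on day 6. Ifit3 went from 1.87% ± 1.65 on day 0 to 40.1% ± 0.883 on day 3 and 51.0% ± 0.948 on day 6. In WT on day 6, Ifit2 still made up 49.5% ± 5.20 of the sum and Ifit3 16.8% ± 3.62 (SD, n = 3). Of the Oas sum, Oasl2 made up 76.9% ± 1.09 on day 3 and 41.8% ± 0.205 on day 6 in the KO-labelled libraries. Oas1a went from 11.8% ± 0.944 to 26.3% ± 0.540 between those days. These shares did not overlap between the day 3 and day 6 KO-labelled libraries.

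The spread between replicates was shared by the members. In the day 3 KO-labelled libraries, replicate 2 was lowest for 9 of 10 members and replicate 1 was highest for 7. The 6 myotube markers in the table (Myog, Myh3, Ckm, Tnnt3, Acta1 and Mymk) summed to 5803, 3153 and 3449 CPM in replicates 1, 2 and 3 of that group, so the lowest and highest were the same libraries. On day 6 the sums were 8575, 10656 and 10678 CPM, with replicate 1 lowest as for the members. In WT they ran from 1860 to 2043 CPM on day 3 and from 1534 to 1780 CPM on day 6. By edgeR's quasi-likelihood test all 6 were higher in the KO-labelled libraries on days 3 and 6, and 5 of 6 on day 1. The part of the extent of differentiation in the members' levels was not tested.

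Markers of cells that respond strongly to interferon were scarce. The 6 macrophage markers summed to 1.52 to 2.40 CPM per library in the day 3 KO-labelled libraries and to 1.04 to 1.69 CPM in WT. On day 6 the sums were 9.97 to 12.0 CPM against 3.02 to 5.11 CPM. Of the 6, 4 (Ptprc, Adgre1, Lyz2 and Fcgr1) did not pass the filter on low counts, none above 4 counts in a library, and all 4 were at 0 in every day 6 KO-labelled library. The day 6 difference was that of Cd68, a lysosomal protein gene (10.7 ± 1.09 against 3.32 ± 1.26 CPM, SD, n = 3 each; log2 fold change 1.68, edgeR adjusted p = 1.15e-05).

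The other genes of the pathway were taken from lists that were chosen with earlier results of these data known. Their calls, above all those of days 3 and 6, are therefore a description and not independent support. Of 34 listed genes in the table, 29 were tested. On day 0 edgeR's quasi-likelihood test called 5 of them, all lower in the KO-labelled libraries. It called 3 higher and 9 lower on day 1, 18 higher and 4 lower on day 3, and 17 higher and 3 lower on day 6. The share of the list called lower on day 0 was 17.2%, beside 10.1% of all tested genes. On day 1, 10.3% were called higher and 31.0% lower, beside 22.9% and 19.2%. On day 3, 62.1% were called higher and 13.8% lower, beside 24% and 19.2%. On day 6, 58.6% were called higher and 10.3% lower, beside 22% and 20.8%. Among the other rows of the families, Oas1b had 22 to 38 counts in the day 3 KO-labelled libraries and at most 3 in WT, at least 9.44-fold higher, and its day 6 log2 fold change was 6.46. Oas1c was at least 2.99-fold higher on day 3 and at least 22.7-fold higher on day 6, with at most 3 counts in the WT libraries of those days. Oas1b reached 8.06 ± 0.451 CPM (SD, n = 3) on day 6. Oas1d, Oas1e, Oas1f, Oas1h and Ifit1bl1 did not pass the filter on low counts. Ifit1bl2 never exceeded 11 counts in a library.

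Interferon itself was hardly seen. Of 21 rows for interferon genes, 16 had a count of 0 in every library and no row exceeded 8 counts. Ifnb1 had 1 count in the whole series. Ifng had 12 counts over the day 6 KO-labelled libraries, 0 over those of WT and 17 in the whole series. The receptor chains were present in both genotypes. Ifnar1 did not pass the test on any day (log2 fold change -0.17 to -0.09), and Ifnar2 was higher on day 3 alone (0.26, edgeR adjusted p = 0.0159). The receptor-bound kinase Tyk2 was lower on days 1 and 3 (-0.58 and -0.46).

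Of 8 listed transcription factors of the interferon response, 5 were higher on day 3 and 6 on day 6. Stat2 and Irf9, which encode parts of ISGF3, were higher by 0.99 and 1.76 on day 3 and by 2.08 and 2.38 on day 6, each past edgeR's quasi-likelihood test. Irf7, which amplifies interferon responses, was lower on day 1 (-1.49, edgeR adjusted p = 0.000137) and higher on days 3 and 6 (3.37 and 4.67). Irf1, Irf3 and Irf5 passed on 1 day each, and Irf2 on none.

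A sensor and a feedback gene also differed in opposite directions early and late, as Oasl2 did. Ddx58, which encodes the RNA sensor RIG-I, was lower on days 0 and 1 (log2 fold changes -0.74 and -0.75) and higher on days 3 and 6 (0.97 and 2.15). Isg15, a ubiquitin-like modifier, was lower on days 0 and 1 (-1.76 and -1.33) and higher on days 3 and 6 (2.64 and 4.11). Each of these 8 differences passed edgeR's quasi-likelihood test, with adjusted p of at most 0.000609. Of the 10 sensor genes tested, 9 were higher on day 3 and 8 on day 6, and Mavs, the adaptor of RIG-I, was lower on all 4 days (-0.55 to -0.20). Usp18, an inhibitor of interferon receptor signalling, had at most 5 counts in any WT library and was higher by 6.22 on day 3 and 7.79 on day 6.

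Abce1, which encodes a factor that recycles ribosomes, was higher in the KO-labelled libraries on days 1 and 3 (log2 fold changes 0.60 and 0.28, edgeR adjusted p = 2.15e-06 and 0.00559). Pde12, a phosphodiesterase that degrades 2-5A, was higher on day 1 (0.24, edgeR adjusted p = 0.0404).

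The genes whose pattern was most like that of the members were sought among 10889 other genes with a named symbol, by the correlation of log2 CPM over the 8 group means with the mean standardised profile of the members. Among the 8 nearest were Oas1b (r = 0.994), Usp18 (0.993), Tgtp2 (0.993), Bst2 (0.990), Tbc1d8 (0.990), Myo18b (0.990) and Ifih1 (0.988). With 8 points that share libraries, r is a description only. Tgtp2 has a near-identical copy, Tgtp1, and its level is uncertain. Bst2, which encodes a membrane protein that tethers virus particles, reached 237 ± 31.8 CPM in the day 6 KO-labelled libraries against 12.4 ± 2.84 CPM in WT (SD, n = 3 each). Among the members themselves, each set against the mean of the other 9, r was highest for Oas1a (0.998) and lowest for Oasl1 (0.72) and Ifit2 (0.89).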

How the data were processed

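Poly(A) RNA from 23 C2C12 libraries in 8 groups was measured. The authors deposited a table of estimated counts, as whole numbers, and a table of TPM (abundance per transcript length and depth) for the same genes. The submitters' processing notes name Bowtie2, RSEM and mm10. Which annotation was counted, and whether by strand, is not given in the sources used here. RefSeq served for positions and promoters, and GENCODE M21 for strands, overlapping genes and shared windows, both on the same build (GRCm38).

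Estimated counts were rounded, which changed 0 values, filtered with filterByExpr (minimum count 10, minimum total 15, 14187 of 32793 rows kept), TMM-scaled and fitted with edgeR 4.0.16 in R 4.3.3 as 1 group-means model over all libraries. The quasi-likelihood test used Benjamini-Hochberg adjustment over all tested genes and a threshold of 0.05. SEs derive from the F statistic. All 10 members passed the filter, most only through the groups in which they were high. Because the day 3 and day 6 levels chose the members, members were tested only among day 0 and day 1 libraries. The procedure was tested on simulated data.

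A fold against a group at or under 3 counts in every library is a lower bound against 3 counts per library. Floors cover counting error only. Log2 CPM used a prior count of 2. Alternatives were RLE scaling, library size only, filters of none and of mean count 50 or more, limma 3.58.1 on log2(TPM + 1) and log2(TPM + 0.1), DESeq2 1.42.0, only the groups compared, merged paralogs, the replicate block and leaving out each library of the groups compared.

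The members and lists were chosen with earlier results of these data known. The text names the members, Runx1, the listed pathway and marker genes, and the 8 non-members nearest in pattern with a group mean of at least 5 CPM. Chosen after the values were seen were the requirement of 10 counts, the day 3 to day 6 changes, the split of the Oas sum into synthetases and Oas-like genes, the 50-base windows and the count of interferon rows. Some listed genes, and 1 of the 8 nearest, are not reported here, though counts over lists include them.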

Additional observations from a re-analysis of the deposited data

Results flagged for a closer look

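Ifit1 changed differently in the 2 genotypes over the first day in low serum. Its counts went from 39 and 30 to 18, 20 and 18 in WT and from 27, 17 and 18 to 47, 42 and 33 in the KO-labelled libraries, and the interaction in edgeR's quasi-likelihood test was 1.87 on the log2 scale (SE 0.47, adjusted p = 0.0254). Among the 4 members with at least 10 counts in a day 0 library, every KO-labelled library was below every WT library on day 0 and above every one on day 6 for 3, and whether these differences themselves differ between days was not tested. They were Ifit1 on day 0 (log2 fold change -0.70, and 5.25 on day 6), Oasl1 on day 0 (-2.03, and 2.32 on day 6) and Oasl2 on days 0 and 1 (-1.47 and -0.92, and 4.77 on day 6). Ifit3b and Oas3 showed the same order on both days, with at most 4 counts in any day 0 library. Of all tested genes, 2.78% had this order on both days, 26.6% had the day 0 part and 26.5% the day 6 part. The day 6 values helped to choose the members, so the day 6 part was fixed for them. Only the day 0 part can be set beside a share of all genes.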

How the results depend on the processing

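The 2 calls of day 0 became 1 with a mean count of at least 50, a filter that Oasl1 did not pass, and 1 with limma on log2(TPM + 1), 3 with log2(TPM + 0.1), and 0 to 1 when a library was left out. The 3 calls of WT between day 0 and day 1 became as few as 1 and at most 2 without a library, with 1 left without WT replicate 1 of either day. They became 2 with library size only, with a mean count of at least 50 and with log2(TPM + 1), and 4 with no filter, DESeq2, log2(TPM + 0.1) and only the groups compared. The 1 called interaction became 0 in 6 of the 11 fits without a library and was 1 in the others. The cause was not tested, though each of these fits had fewer samples. The calls of Ifit1, Ifit2 and Oasl2 on day 1 held in all 16 alternatives.

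Without Ifit3, its largest member, the log2 ratio of the Ifit sum was 3.01 on day 3 and 4.32 on day 6, against 3.44 and 4.99. Without Oasl2 that of the Oas sum was -2.20, -2.37, 4.01 and 7.74 on days 0, 1, 3 and 6, against -1.76, -1.05, 3.55 and 5.73; by construction the rest of the family then sets the value.

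The interaction of Oasl1 turned from -0.65 to 0.26 with log2(TPM + 1) and 0.34 with log2(TPM + 0.1), and that of Oasl2 from 0.55 to -0.11 with log2(TPM + 1); neither passed the test under any setting run. Oasl1 on day 3 ranged from -0.059 (without replicate 3 of the KO-labelled libraries) to 0.62 when a library was left out, against 0.38. The cause was not tested.

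The replicate numbers were taken from the titles, and same-numbered libraries did not deviate together (r = -0.24 to 0.05 over 16 pairs), so the numbers were not taken to pair the libraries. With the replicate block the counts of calls stayed at 2 and 4 for the genotypes on days 0 and 1, at 3 for each genotype's first day and at 1 for the interaction. Library size alone moved the median of all genes for the first day labelled KO to 0.12 from 0.04.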
